A study of Rattus norvegicus with 47 samples.

Results

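The comparison described here follows the liver of vitamin A-deficient rats from 6 h to 10 h after a dose of all-trans-retinoic acid (RA). Its members are the 7 arrays of the RA time course whose titles give 10 h (4 arrays) or 6 h (3 arrays), of 47 arrays in the whole series, and no vehicle array entered the test. Each array holds liver RNA of 1 rat. The rats were female Sprague-Dawley rats of 8 weeks whose dams, and from weaning the rats themselves, ate a purified diet deficient in vitamin A. Every rat of both groups received about 100 µg of RA, by a route the labels do not give, and was killed 6 h or 10 h later with food freely available. The same time course has 3 arrays of vehicle-treated deficient rats killed at 0 h, 3 arrays at 3 h and 3 at 16 h, whose levels are set beside the comparison as a description. Values are log2 signals relative to the median of the array, so a level of 0 is the median probe set and levels of different genes are not compared with each other.

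RA is the active acid form of vitamin A. It binds the receptors RARA, RARB and RARG, which pair with retinoid X receptors on response elements in DNA and raise transcription of their targets. Among the best known targets are Cyp26a1, whose enzyme oxidises RA and so limits its own signal, Rarb itself, and Dhrs3, whose enzyme turns retinaldehyde back into retinol. The liver is the main store of vitamin A, and it also runs many daily cycles of metabolism under the circadian clock and feeding.

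The technical readings of the 6 h and 10 h arrays overlapped but were not all alike. The median signal was 44.2 to 50.9 times the array floor at 6 h and 47.5 to 53.6 times at 10 h. The 3′ minus 5′ difference of the Gapdh control probe sets was 0.47 to 0.78 at 6 h and 0.36 to 0.53 at 10 h, and that of actin was 2.23 to 2.39 and 2.11 to 2.65. The Gapdh value of 0.78 was that of 6 h replicate 1. The upper quartile of the array was 1.64, 1.47 and 1.67 at 6 h and 1.53, 1.41, 1.44 and 1.42 at 10 h. The median difference over all probe sets tested was -0.14 (log2, 10 h minus 6 h), and changes below are to be read relative to that shift. The part of the upper quartiles in that shift was not tested. The 6 h and 10 h rats were killed at different times after dosing and no vehicle rat was killed at either time, so time after RA and time of day cannot be told apart. In whole liver RNA, fewer cells of a type and less RNA per cell cannot be told apart either.

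Between 6 h and 10 h more transcripts fell than rose. Of 20710 probe sets tested with limma, 197 were called (0.951%), a call being a Benjamini-Hochberg adjusted p under 0.05, and all 197 differed by at least 1.5-fold. Of these, 44 were higher at 10 h (0.212%) and 153 were lower (0.739%). Quantile normalization gave 194 calls with 101 higher and 93 lower, so the split between rises and falls depends on the scaling, although all 197 calls kept their direction there. Per gene, with 1 probe set each, 34 of 11291 named genes rose (0.301%), 109 fell (0.965%), and 143 changed in all (1.27%). The 2 groups did not overlap in 141 of the 143, the exceptions being Tfrc and Tm7sf2, while over all genes the groups did not overlap in 12.2% (2.84% with 10 h higher and 9.32% with 10 h lower). The calls were made on the same values, so this separation largely follows from them and is no added support.

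How many transcripts were called depended on the spread that the fit was given. The fit without an intensity trend called 0, with 1684 probe sets at an unadjusted p under 0.05 against 2167 in the fit reported here, and fits that added the other arrays of the time course called 39 (13 RA arrays) or 37 (16 arrays). Leaving out 6 h replicate 1 or 3 gave 94 or 67 calls, leaving out 10 h replicate 2, 3 or 4 gave 103, 95 or 82, and leaving out 6 h replicate 2 or 10 h replicate 1 gave 169 or 179. A core of 35 genes was called in each of the 7 fits that left out 1 array, 7 higher and 28 lower. Of these, 23 were also called in the fit over the 13 RA arrays. They include Nr0b2, Cyp8b1, Hsd17b2, Thrsp, Ccnd1, Nr1d2, Hamp, Fads1, Cpt1a, Asl and Klf15 among the falls and Nrep, Angptl4, S1pr1, Lcmt1 and Rtp3, which make up the rises. Both kinds of fit called Mfsd2a, Cks1b, Hdhd3, Hes6, Paqr9, Mgat2 and Oaf lower as well. These 7 and Klf15, Lcmt1 and Rtp3 lie outside the rule by which genes were named and were singled out after their values were seen. Of 59 further probe sets of called genes, 52 had the sign of the one reported, 11 were called, and 0 were called with the opposite sign.

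**Figure D1:**
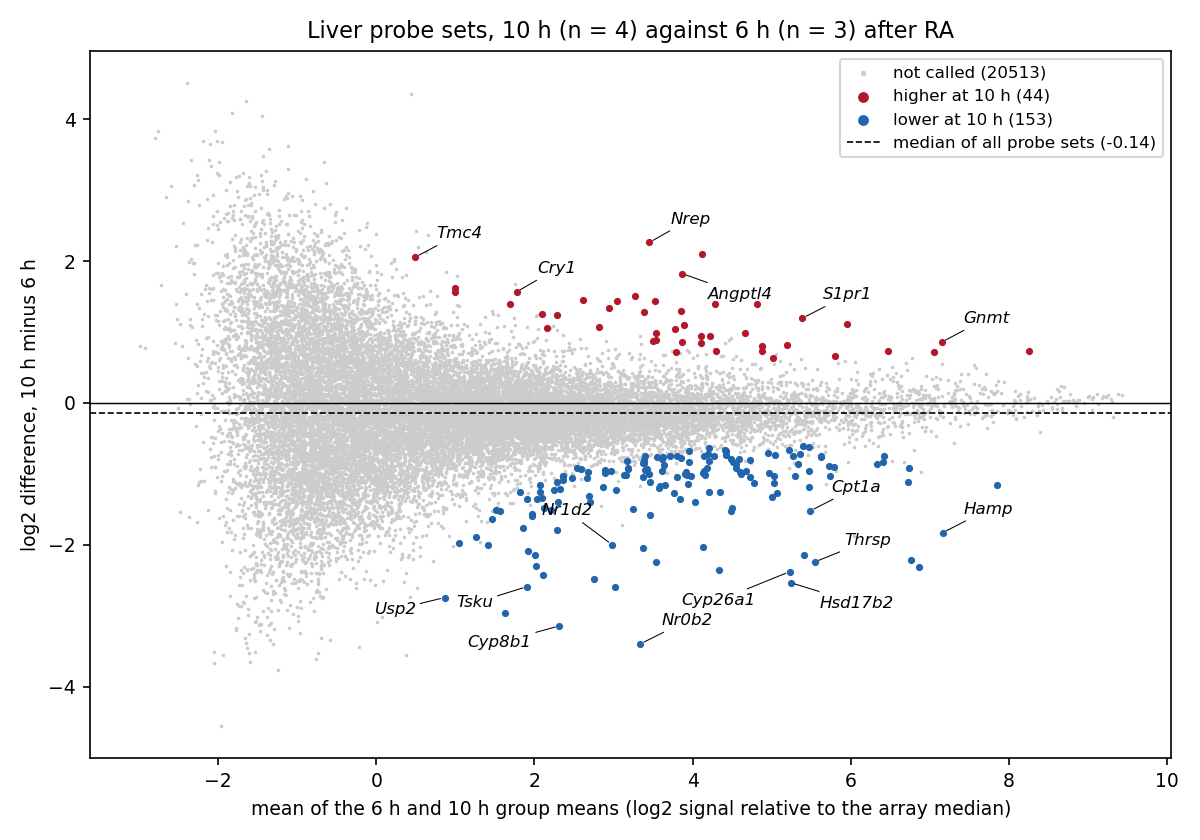
Each dot is a probe set, plotted by its mean level over both groups (x axis, log2 signal relative to the array median) and its log2 difference, 10 h minus 6 h (y axis); red dots were called higher (44), blue dots lower (153), and the dashed line is the median of all probe sets (-0.14). Called differences of about 1 lie at levels above 2, while below a level of 0 the grey cloud is several log2 units wide.

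The list of RA receptors and genes known to respond to RA had the largest share of falls of the 27 pathway lists examined. That rank rests on 4 members chosen with these data known. Of 25 measured members of the list of RA receptors and direct targets, 8 fell and none rose, against 0.965% of all genes that fell, and the median difference was -0.68 (-0.14 over all genes). Tsku, Dact2, Snx21 and Nr0b2 had been put on that list with earlier results of these data known, so its count is not independent evidence. Of the 21 other members, 4 fell (Cyp26a1, Rarb, Dhrs3 and Pck1), with a median of -0.35. This share was no longer the largest, since 5 of 22 genes downstream of the clock fell, with a median of -0.65.

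Cyp26a1 and Rarb are the textbook RA targets with a response element near the start of the gene, and their sequences are shown because both transcripts fell. In the 250 bases before the RefSeq start of Cyp26a1 (GRCr8, plus strand, chr1:244883572-244883821), capitals mark a direct repeat with 5 bases between its arms, read on the minus strand at positions -92 to -76.
Cyp26a1: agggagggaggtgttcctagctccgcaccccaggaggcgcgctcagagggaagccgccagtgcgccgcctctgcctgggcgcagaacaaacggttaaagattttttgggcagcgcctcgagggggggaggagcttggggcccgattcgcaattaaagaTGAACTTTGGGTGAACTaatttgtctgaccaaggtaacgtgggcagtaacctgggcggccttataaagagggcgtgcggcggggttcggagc
For Rarb the 30 bases around the match are shown (GRCr8, plus strand, chr15:11336410-11336439). The match lies at positions 25 to 41 after the RefSeq start, on the plus strand, again in capitals.
Rarb: gggaagGGTTCACCGAAAGTTCActcgcat
The search covered both strands of 300 bases (250 before to 50 after the start) for 16 spellings, in which each arm is AGGTCA or AGTTCA or GGGTCA or GGTTCA and any 5 letters lie between the arms. A match was present in 128 of 33469 RefSeq promoters (0.382%) and in 2 of the 135 promoters matched to called genes, these being Cyp26a1 and Rarb. A match is a description of the letters and no measure of binding.

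Cyp26a1, which clears RA, stood at 6.52, 6.27 and 6.45 in the livers at 6 h and at 3.40, 5.44, 3.90 and 3.41 at 10 h. The 6 h livers lay close together, and 10 h replicate 2 kept more Cyp26a1 than the other 10 h livers but still less than any 6 h liver. The transcript fell by 2.38 ± 0.31 (SE, log2), which is 5.19-fold (limma, adjusted p = 0.000245). Its mean had been 4.04 ± 0.55 (SD, n = 3) at 3 h and returned to 4.04 ± 0.96 (SD, n = 4) at 10 h, with the vehicle group at -2.25 ± 2.15 (SD, n = 3). In the fit over the 13 RA arrays it was not called, with a 16 h SD of 3.44, and its adjusted p over 18 alternatives ran from 1.86e-07 to 0.551.

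Cyp26b1, the related RA-oxidising enzyme, was not called. Its levels were 4.61, 3.27 and 4.17 at 6 h and 4.64, 5.38, 4.72 and 4.85 at 10 h, so each 10 h liver was above each 6 h liver, by 0.03 at the nearest pair. The difference was 0.88 (95% interval 0.39 to 1.37), not called at an adjusted p of 0.0862, and 4 of 18 alternatives called it (0.0242 to 0.88). Without 6 h replicate 2 the difference was 0.51, and a second Cyp26b1 probe set had the opposite sign (-0.48 ± 0.75, SE, adjusted p = 0.859).

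Rarb, which encodes the RA receptor beta, was 5.17, 4.79 and 5.29 at 6 h and 4.57, 3.81, 3.72 and 4.33 at 10 h. All 10 h livers were lower than all 6 h livers, and Rarb fell by 0.98 ± 0.19 (SE, adjusted p = 0.015 with limma). Dhrs3, which reduces retinaldehyde, stood at 5.71, 5.40 and 5.83 at 6 h and at 5.04, 4.98, 4.72 and 4.87 at 10 h. It fell by 0.74 ± 0.15 (SE, adjusted p = 0.0151), and at 10 h its mean of 4.90 was still above the vehicle mean of 4.03, as the Rarb mean of 4.11 was above 3.70. The Rarb call was lost without 6 h replicate 1 or 3 or 10 h replicate 2 or 3 (adjusted p up to 0.147), and that of Dhrs3 without 6 h replicate 1 or 3 or 10 h replicate 3 or 4 (up to 0.144).

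Tsku, Dact2 and Snx21 also fell. Tsku, a secreted leucine-rich protein, was 3.81, 2.51 and 3.28 at 6 h and 1.13, 1.57, -0.59 and 0.35 at 10 h. It was 6.01-fold lower at 10 h (log2 difference -2.59 ± 0.42, SE, adjusted p = 0.00252), with no overlap between the groups. Dact2, an intracellular antagonist of Wnt and TGF-beta signalling, was 3.37, 3.12 and 3.06 at 6 h and 1.59, 1.76, 0.54 and 1.67 at 10 h. Its fall was 1.79 ± 0.29 (SE, adjusted p = 0.00229), and 10 h replicate 3 lay well below the other 10 h livers. Snx21, a sorting nexin, ranged from 2.42 to 3.33 at 6 h and from 1.27 to 1.75 at 10 h, a fall of 1.51 ± 0.27 (SE, adjusted p = 0.00606), and it was not called without 6 h replicate 1 or 3 (adjusted p up to 0.0878). None of Tsku, Dact2 and Snx21 was called over the 13 RA arrays, and their largest adjusted p over the alternatives were 0.536, 0.593 and 0.307.

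The genes of retinoid handling did not move as one. Of 29 measured members of the list of retinoid metabolism and storage, Cyp26a1 and Dhrs3 fell, Adh1c rose, and 26 were not called, with a list median of 0.04. Over all genes 1.27% were called and the median was -0.14. Adh1c, an alcohol dehydrogenase that oxidises retinol among other alcohols, was 7.82, 7.87 and 7.96 at 6 h and 8.80, 8.34, 8.58 and 8.78 at 10 h. It rose by 0.74 (95% interval 0.41 to 1.06, adjusted p = 0.0227), a call lost without any one of the 6 h arrays or 10 h replicate 3 or 4 (adjusted p up to 0.115), while another probe set of Adh1c rose by 1.44 ± 0.19 (SE, adjusted p = 0.000245). Lrat, which makes the retinyl esters that the liver stores, went from 3.32, 3.10 and 3.49 to 3.95, 3.44, 3.60 and 3.71, with groups that overlap, and was not called (adjusted p = 0.479, 95% interval 0.00 to 0.74). Cyp2c22 and Cyp3a9, liver P450s, differed by 0.23 (-0.10 to 0.57) and 0.10 (-0.45 to 0.64) and were not called either.

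**Figure D2:**
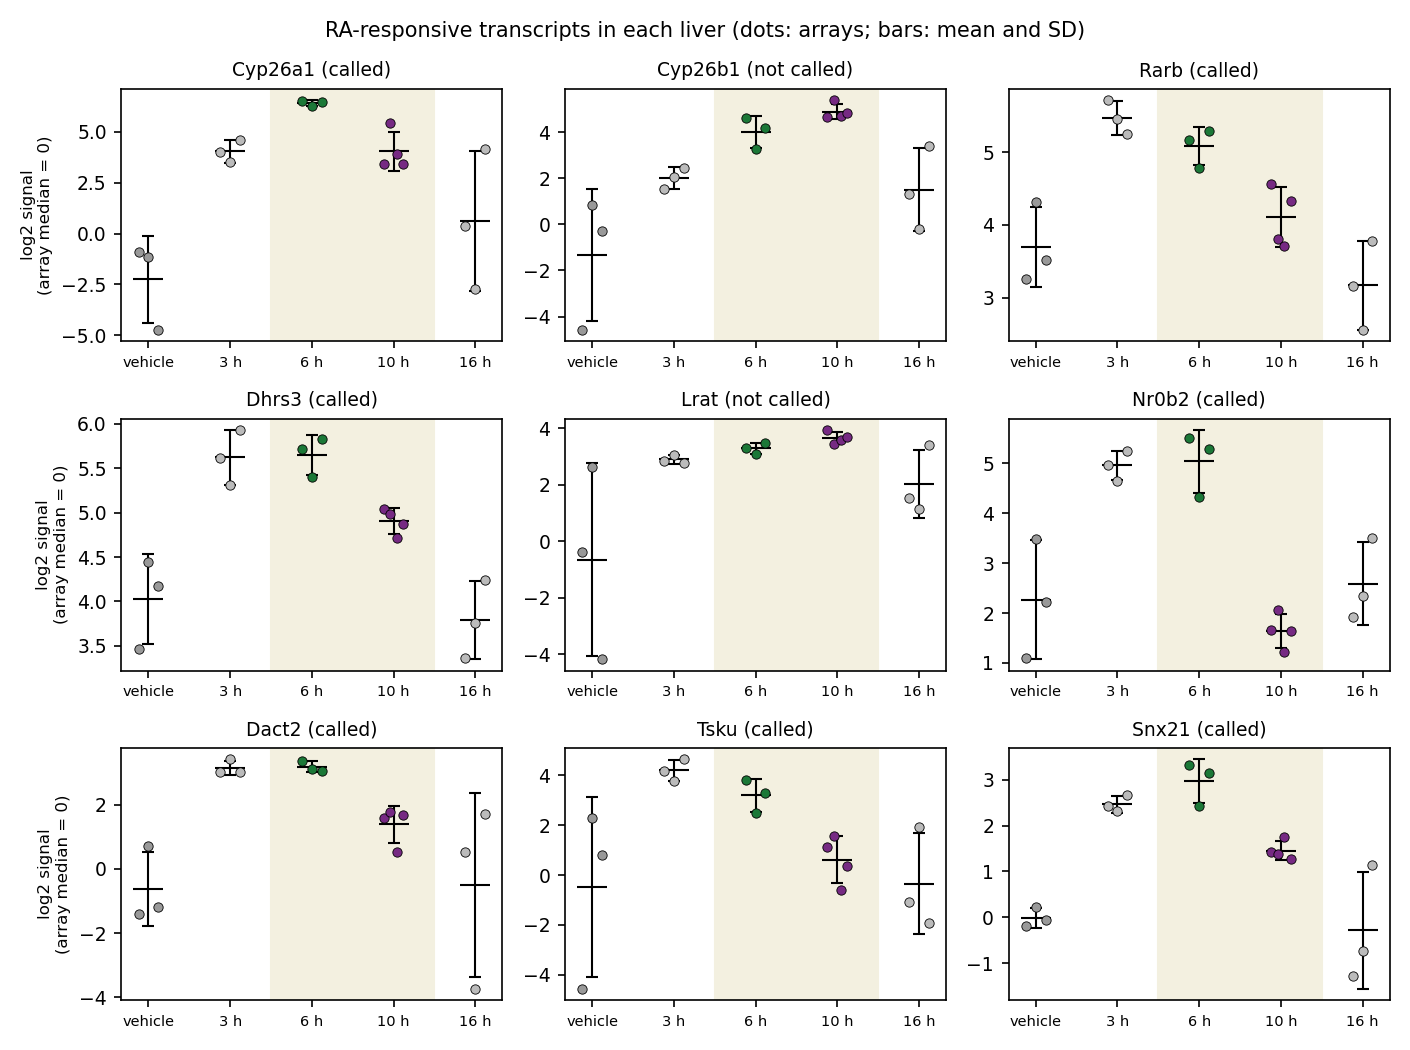
Log2 signal relative to the array median (y axis, scaled per gene) of 9 RA-responsive transcripts in every liver of the time course (x axis: vehicle at 0 h and 3, 6, 10 and 16 h after RA; n = 3 a group, 4 at 10 h), with dots for arrays and bars for mean and SD; shading marks the groups compared. Cyp26a1 is highest at 6 h and back to its 3 h mean of 4.04 at 10 h, while Cyp26b1 and Lrat are highest at 10 h. Tsku, Dact2, Snx21 and Nr0b2 were put among the RA-responsive genes with earlier results of these data known.

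The largest fall among the named genes called was that of Nr0b2. It encodes SHP, a nuclear receptor without a DNA-binding domain that represses other receptors and, in bile acid feedback, the genes Cyp7a1 and Cyp8b1. Nr0b2 was 5.50, 4.32 and 5.29 at 6 h and 1.66, 2.06, 1.21 and 1.64 at 10 h. The gap between the groups was wider than either group's spread, and the transcript was 10.5-fold lower at 10 h (log2 difference -3.39 ± 0.25, SE, limma adjusted p = 1.09e-07). Its mean was 4.95 ± 0.30 (SD, n = 3) at 3 h, and the 10 h mean of 1.64 ± 0.35 (SD, n = 4) was below the vehicle mean of 2.27 ± 1.19 (SD, n = 3).

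Cyp8b1, the enzyme that steers bile acid synthesis towards cholic acid, fell with it. Cyp8b1 was 4.33, 3.77 and 3.55 at 6 h and 0.62, 0.94, 0.83 and 0.58 at 10 h, an 8.82-fold fall (log2 difference -3.14 ± 0.26, SE, adjusted p = 4.21e-07). The 10 h livers were the lowest of the time course, with means of 6.05 in vehicle livers, 5.21 at 3 h and 4.39 at 16 h. Cyp7a1, the rate-limiting enzyme of the pathway, was 2.04, 0.61 and 2.09 at 6 h and -1.23, -3.51, -1.56 and 0.58 at 10 h. These groups did not overlap by a margin of 0.04, and the difference of -3.01 (95% interval -4.76 to -1.27) was not called (adjusted p = 0.104), being called in 2 of 17 alternatives (0.0303 to 0.547).

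Over the 30 measured genes of bile acid synthesis and transport, 4 fell, 1 rose and 25 were not called, with a median of -0.23. Among all genes 0.965% fell and 0.301% rose, with a median of -0.14. Besides Nr0b2 and Cyp8b1 the falls were Hnf4a, a nuclear receptor that maintains hepatocyte gene expression (-0.90, adjusted p = 0.0356), and Akr1c14, an aldo-keto reductase (-0.83, called in 1 of the 7 fits that left out 1 array). Slco1a4, an uptake transporter for organic anions, rose by 0.72 (adjusted p = 0.0463). The calls of Hnf4a and Slco1a4 were each lost without most single arrays, the largest adjusted p being 0.244 for Hnf4a (lost without 6 h replicate 1 or 3 or any 10 h array) and 0.206 for Slco1a4 (lost without any array but 10 h replicate 2). After quantile normalization Hnf4a (0.0946) and Akr1c14 (0.0652) were not called, and the other probe sets of Hnf4a (-1.45 and -0.44) and Slco1a4 (0.62) were not called either.

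Genes of the circadian clock moved in both directions. The clock is a loop in which BMAL1 and CLOCK drive the Per and Cry repressors and the nuclear receptors Nr1d1 and Nr1d2, which in turn repress Bmal1 and Nfil3. Of 20 measured core clock genes, Cry1 and Nfil3 rose, Nr1d2 fell and 17 were not called, while 1.27% of all genes were called. The list median was -0.05, and 0.09 after quantile normalization, so its sign depends on the scaling.

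Nr1d2, or REV-ERB-beta, was 4.14, 3.73 and 4.07 at 6 h and 2.00, 1.77, 1.58 and 2.58 at 10 h. It fell by 2.00 ± 0.23 (SE, adjusted p = 4.66e-05), and another of its probe sets fell by 2.30 ± 0.31 (SE, adjusted p = 0.0003). At 16 h the mean was 4.01 ± 0.44 (SD, n = 3), as high as at 6 h. Nr1d1, its close relative REV-ERB-alpha, was 2.32, 1.67 and 2.48 at 6 h and 0.18, 0.10, -1.36 and -4.49 at 10 h. All 10 h livers were again lower, but they were spread over 4.67 log2 units, and the difference of -3.55 (95% interval -5.35 to -1.75) just missed the call (adjusted p = 0.0533, and 0.00844 to 0.559 over 17 alternatives, of which 6 called it).

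Cry1, a repressor of the loop, was 1.66, 0.34 and 0.97 at 6 h and 2.23, 2.46, 2.66 and 2.86 at 10 h, a rise of 1.57 ± 0.31 (SE, adjusted p = 0.015). Nfil3, a repressor of genes with D-box elements, was 1.56, 1.54 and 1.91 at 6 h and 3.24, 2.80, 2.58 and 3.01 at 10 h. It rose by 1.24 ± 0.23 (SE, adjusted p = 0.0106), with no overlap for either gene. Neither was called over the 13 RA arrays (adjusted p up to 0.397 for Cry1 and 0.444 for Nfil3 over the alternatives). Cry1 was not called without 6 h replicate 2 or 3 or 10 h replicate 2, 3 or 4, and Nfil3 without 10 h replicate 4 (adjusted p = 0.0554).

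Dbp and Tef, activators at D-box elements, did not pass the test. Dbp was 2.11, 0.89 and 2.44 at 6 h and 0.65, -2.57, 0.46 and -1.71 at 10 h, a difference of -2.60 (95% interval -4.11 to -1.10, adjusted p = 0.103). Tef differed by -1.30 (-2.30 to -0.30, adjusted p = 0.306). For both genes all 10 h livers lay below all 6 h livers. Bmal1 (0.45, -0.17 to 1.07), Npas2 (0.31, -0.36 to 0.99), Clock (0.09, -0.38 to 0.56), Cry2 (-0.39, -1.05 to 0.27) and Per2 (-1.31, -2.86 to 0.25) were not called, and their groups overlapped. Per1 varied over several log2 units within each group (-0.04, -2.69 to 2.60), and Per3 was below the filter on low signal and was not tested.

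Among genes known to oscillate downstream of the clock, 5 of 22 fell and none rose, against 0.965% and 0.301% of all genes. The median was -0.65 (-0.50 after quantile normalization), against -0.14 (-0.02) over all genes. Usp2, a deubiquitinating enzyme, was 2.70, 1.56 and 2.44 at 6 h and 0.41, 0.47, -2.50 and -0.40 at 10 h. It was 6.69-fold lower (log2 difference -2.74 ± 0.61, SE, adjusted p = 0.0323), with 10 h replicate 3 lowest, and was not called without any one of the 6 h arrays or 10 h replicate 4 (adjusted p up to 0.233). Nampt, which makes a precursor of NAD, fell by 1.00 (adjusted p = 0.0354) and Slc2a2, the glucose transporter of hepatocytes, by 0.89 (adjusted p = 0.0139). After quantile normalization Nampt (adjusted p = 0.14) and Usp2 (0.0529) were not called, and second probe sets of Usp2 (-0.94, adjusted p = 0.747) and Nampt (-0.67, adjusted p = 0.692) were not called either. The calls of Nampt and Slc2a2 were each lost in 6 of the 7 fits that left out 1 array, Nampt keeping it without 10 h replicate 2 and Slc2a2 without 10 h replicate 1. The other members that fell were Thrsp and Herpud1, described below with lipid synthesis and the endoplasmic reticulum.

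Of 35 measured genes of fatty acid and triglyceride synthesis, 5 fell (against 0.965% of all genes), 1 rose (against 0.301%) and 29 were not called. The median was -0.59 (-0.46 after quantile normalization), against -0.14 (-0.02) over all genes, and 30 of the 35 had a difference below 0, as did 7164 of all 11291 genes. Thrsp, a regulator of lipogenesis that responds to thyroid hormone, was 6.77, 6.53 and 6.68 at 6 h and 4.50, 3.98, 4.22 and 4.98 at 10 h. It fell 4.72-fold (log2 difference -2.24 ± 0.18, SE, adjusted p = 4.21e-07), and its other probe sets fell by 2.14 and 2.36. Thrsp was back at 6.94 ± 0.47 (SD, n = 3) at 16 h, against 6.66 ± 0.59 (SD, n = 3) at 3 h.

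Elovl2, which lengthens polyunsaturated fatty acids, was 5.45, 4.69 and 5.56 at 6 h and 3.81, 3.51, 3.88 and 3.82 at 10 h, a fall of 1.48 ± 0.19 (SE, adjusted p = 0.000134). Fads1, a desaturase of the same pathway, was 7.28, 7.17 and 7.40 at 6 h and 6.64, 5.80, 6.11 and 6.15 at 10 h, a fall of 1.11 ± 0.17 (SE, adjusted p = 0.00114). Both genes separated the groups in all livers, and only Fads1 of the pair was also called over the 13 RA arrays. Scd, which makes monounsaturated fatty acids, fell by 1.36 (95% interval 0.77 to 1.95, adjusted p = 0.0208). The Scd difference was -0.88 and not called without 6 h replicate 2, the 6 h liver with the most Scd (5.47), and it was not called without 10 h replicate 1, 2 or 4 (adjusted p up to 0.107) or after quantile normalization (0.0946). Plin2, a lipid droplet coat protein, fell by 0.61, and Mid1ip1, a partner of Thrsp, rose by 0.88, calls that held in 0 and 2 of the 7 fits that left out 1 array, and Plin2 was not called after quantile normalization (adjusted p = 0.112).

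Fatty acid synthase itself and its regulator were not called. Fasn ranged from 3.05 to 4.56 at 6 h and from 2.50 to 4.10 at 10 h (difference -0.60, -1.29 to 0.09, adjusted p = 0.554). Srebf1 differed by -0.07 (-0.46 to 0.32), with a sign that changed under quantile normalization. In cholesterol synthesis and uptake, 2 of 26 genes fell, against 0.965% of all genes, with a median of -0.20 (-0.14 over all genes). The 2 were Fdps, which makes farnesyl pyrophosphate (-0.86, adjusted p = 0.0203), and Tm7sf2, a sterol reductase (-1.03, adjusted p = 0.0294), whose groups overlapped. Both calls were lost without 6 h replicate 1 or 3 or 10 h replicate 2 or 3, and that of Tm7sf2 also without 10 h replicate 4.

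Of the genes of fatty acid oxidation and ketogenesis, 1 of 36 rose and 2 fell, against 0.301% and 0.965% of all genes. The list median was -0.10 (-0.14 over all genes). Cpt1a, the gatekeeper of mitochondrial fatty acid uptake, was 6.29, 5.88 and 6.57 at 6 h and 4.56, 4.83, 4.95 and 4.57 at 10 h. It fell by 1.52 ± 0.16 (SE, adjusted p = 2e-05), with a second probe set falling by 2.42, and the groups were far apart. Cpt2, which acts after Cpt1a in the inner membrane, fell by 0.94 (adjusted p = 0.02), and was not called without 6 h replicate 1 or 3 or 10 h replicate 2, 3 or 4 (adjusted p up to 0.152).

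Angptl4, a secreted inhibitor of lipoprotein lipase, went the other way from Cpt1a. It was 3.04, 2.69 and 3.15 at 6 h and 4.54, 3.85, 5.63 and 5.11 at 10 h, a rise of 1.82 ± 0.27 (SE, adjusted p = 0.00116). The 6 h livers had the lowest mean of the time course (2.96), and the 10 h mean of 4.78 was near those of 3 h (4.68) and vehicle (5.21).

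**Figure D3:**
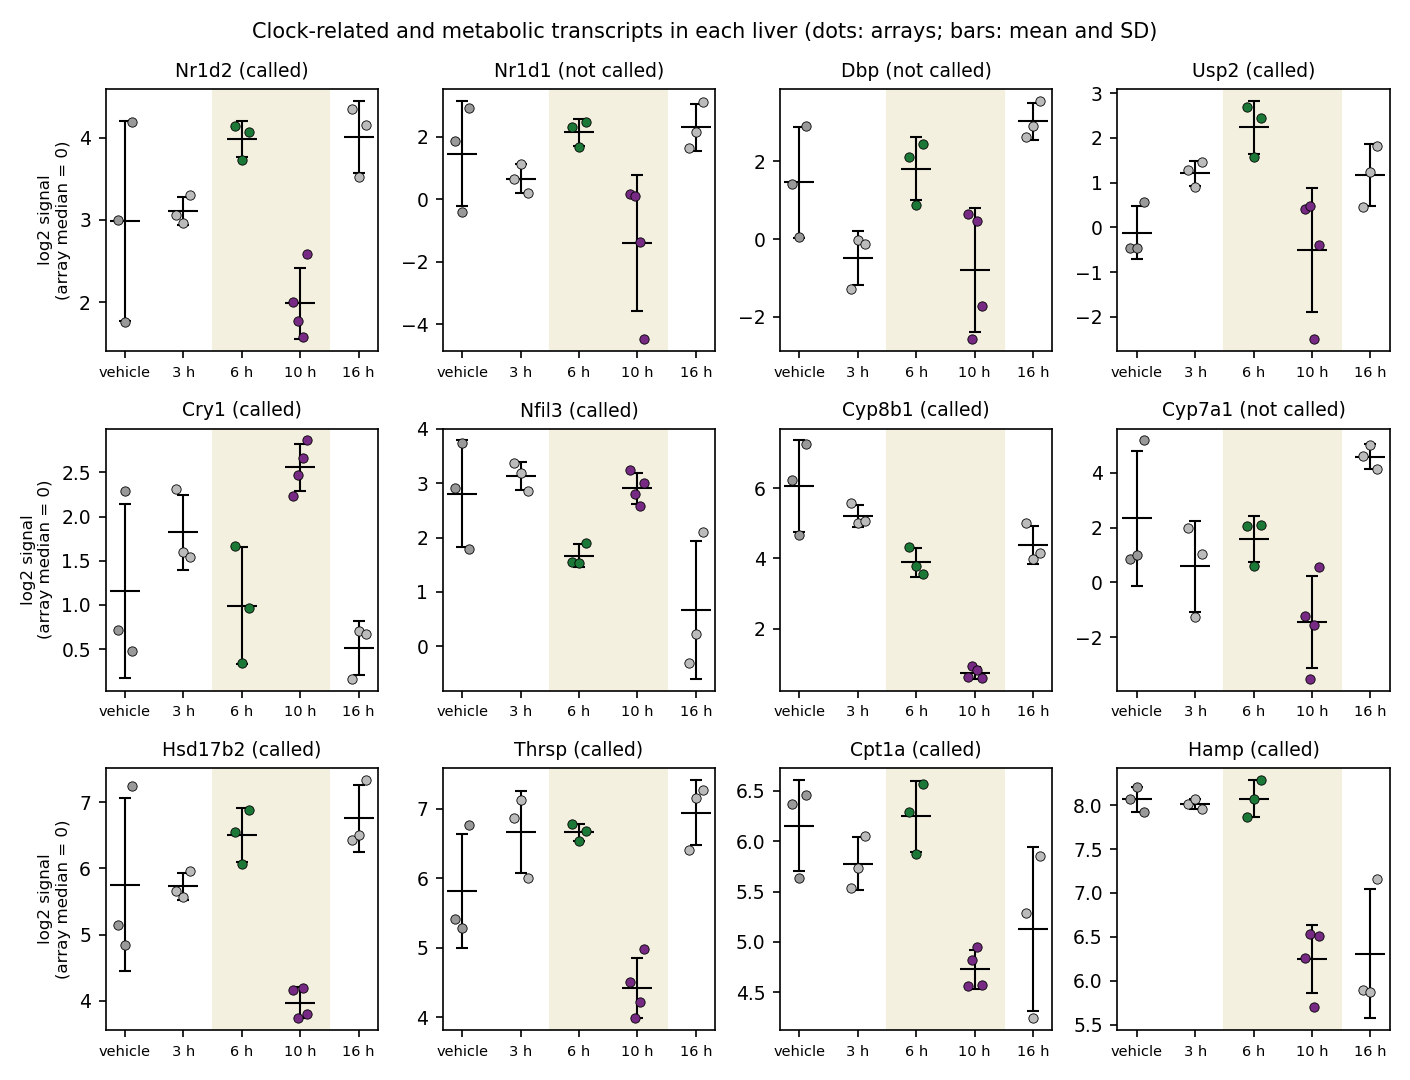
Log2 signal relative to the array median (y axis, scaled per gene) of 12 clock-related and metabolic transcripts in every liver of the time course (x axis: vehicle at 0 h and 3, 6, 10 and 16 h after RA; n = 3 a group, 4 at 10 h), with dots for arrays and bars for mean and SD; shading marks the groups compared. Nr1d2, Cyp8b1, Hsd17b2 and Thrsp are lowest at 10 h and higher again at 16 h, while Hamp stays low (6.25 at 10 h and 6.31 at 16 h).

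Genes of glucose production and amino acid breakdown were lower at 10 h where they were called. Of 37 measured genes of gluconeogenesis and amino acid catabolism, 4 fell and none rose, against 0.965% and 0.301% of all genes. The list median of -0.07 was not below that of all genes (-0.14), so the falls were not shared by the list. Sds, serine dehydratase, was 4.75, 4.79 and 4.44 at 6 h and 2.30, 3.25, 1.64 and 2.49 at 10 h, a fall of 2.24 ± 0.26 (SE, adjusted p = 4.42e-05). Over the 13 RA arrays Sds was not called (limma adjusted p = 0.0671). Asl, argininosuccinate lyase of the urea cycle, was 6.07, 6.04 and 6.10 at 6 h and 5.05, 5.09, 4.55 and 4.85 at 10 h, a fall of 1.18 (adjusted p = 0.000131). The groups did not overlap in either gene, and for Asl the gap of 0.95 was wider than the spread within each group.

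Pck1, the controlling enzyme of gluconeogenesis, was 8.38, 8.45 and 8.43 at 6 h and 6.47, 7.96, 7.04 and 7.60 at 10 h. The 6 h livers were nearly alike and each 10 h liver was lower, by 1.15 ± 0.24 on average (SE, adjusted p = 0.0199), a call lost without any one of the 6 h arrays or 10 h replicate 3 (adjusted p up to 0.121). Got1, an aminotransferase, fell by 0.81 (adjusted p = 0.0352), and without any single array other than 10 h replicate 1, or after quantile normalization (0.113), it was not called. Slc37a4, the transporter that feeds glucose 6-phosphate to glucose production, fell by 0.99 and was picked out after its values were seen. It was called in each of the 7 fits that left out 1 array, but not over the 13 RA arrays (limma adjusted p = 0.123).

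Glucocorticoid-induced genes gave 5 falls and 2 rises among 26 measured, where 0.965% of all genes fell and 0.301% rose, with a median of -0.37 (-0.14 over all genes). The falls were Sds, Igfbp1, Pck1, Cebpb and Gadd45a, and the rises were Angptl4 and Sult1a1. Cebpb fell by 1.18 and was called in 2 of the 7 fits that left out 1 array (limma adjusted p up to 0.224). Over the 13 RA arrays Cebpb was not called (adjusted p = 0.24). Tsc22d3 (-0.33, -0.92 to 0.26) and Fkbp5 (-0.16, -1.03 to 0.71), which glucocorticoids raise in many tissues, were not called. Igfbp1, which binds insulin-like growth factors and is lowered by insulin, was 6.17, 4.01 and 5.26 at 6 h and 3.35, 2.84, 2.95 and 3.31 at 10 h. It fell by 2.04 ± 0.31 (SE, adjusted p = 0.00121), with 6 h livers that differed among themselves by up to 2.16 log2 units. Over the 13 RA arrays Igfbp1 was not called (limma adjusted p = 0.0562).

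In the growth hormone and IGF axis, Igfbp1, Lifr and Igfbp4 fell and none of the 26 measured genes rose. Among all genes 0.965% fell and 0.301% rose. Lifr, the receptor of leukaemia inhibitory factor, was 5.00, 2.38 and 4.58 at 6 h and 2.19, 0.83, 2.08 and 0.94 at 10 h. Only 6 h replicate 2 came near the 10 h range, and the fall was 2.48 (95% interval 1.54 to 3.41, adjusted p = 0.00731). Lifr was not called without 6 h replicate 1 or 3 or 10 h replicate 2 or 4 (adjusted p up to 0.119), while another of its probe sets fell by 2.96 ± 0.52 (SE, adjusted p = 0.00549). Igfbp4, another binding protein, fell by 0.81 (adjusted p = 0.0278), with the call lost without 6 h replicate 1 or 3 or 10 h replicate 1, 3 or 4 (up to 0.191) or after quantile normalization (0.0731).

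Hepcidin, the hormone that lowers iron export into blood, was also lower at 10 h. Its gene Hamp was 7.87, 8.08 and 8.29 at 6 h and 6.26, 6.54, 5.70 and 6.51 at 10 h, a 3.54-fold fall (log2 difference -1.83 ± 0.18, SE, adjusted p = 6.33e-06). Hamp means were 8.07 in vehicle livers, 8.01 at 3 h and 8.08 at 6 h, then 6.25 at 10 h and 6.31 ± 0.73 (SD, n = 3) at 16 h. Tfrc, the transferrin receptor that takes up iron, rose from 3.24, 2.63 and 2.36 to 4.04, 4.12, 3.23 and 4.71. Its rise of 1.28 (95% interval 0.73 to 1.83, adjusted p = 0.02) came with groups that overlap by 0.01, and it was not called without 6 h replicate 2 or 3 or 10 h replicate 1, 2 or 4 (up to 0.185). A second Tfrc probe set was 2.43 higher and not called (adjusted p = 0.0537). Hamp and Tfrc were the only members called of 21 genes of iron handling and of 28 acute phase genes, whose medians were -0.30 and 0.01. The share called over all genes was 1.27%, with a median of -0.14.

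Ccnd1, which encodes cyclin D, and Gadd45a, a growth arrest gene, were the called members of 36 cell cycle genes, and both fell. Among all genes 0.965% fell. Ccnd1 was 4.82, 3.80 and 4.56 at 6 h and 2.73, 2.13, 2.45 and 2.12 at 10 h, a 4.11-fold fall (log2 difference -2.04 ± 0.23, SE, adjusted p = 3.14e-05) that its other probe sets showed as well (-1.39 and -2.59, both called). Gadd45a fell by 1.64 (adjusted p = 0.0223) and was not called without any one of the 6 h arrays or 10 h replicate 3 (up to 0.139). The list median was 0.09, so the fall of these genes was not shared by the list.

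Of 28 genes of endoplasmic reticulum and amino acid stress, 2 fell and none rose, against 0.965% and 0.301% of all genes. The median was -0.36 (-0.14 over all genes), and 24 of the 28 had a difference below 0, as did 7164 of all 11291 genes. Dnajb9, a co-chaperone of the endoplasmic reticulum, was 4.40, 3.92 and 4.44 at 6 h and 2.36, 2.51, 2.98 and 2.85 at 10 h, a fall of 1.58 with a 95% interval of 1.17 to 2.00 (adjusted p = 0.000131). Over the 13 RA arrays Dnajb9 was not called (limma adjusted p = 0.0695). Herpud1, of the degradation machinery there, fell by 0.72 (adjusted p = 0.0435), a call lost whichever of the 7 arrays was left out (0.0648 to 0.196) and after quantile normalization (0.0946).

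Hsd17b2, which inactivates oestradiol and testosterone, had the lowest p of the named genes. It was 6.55, 6.07 and 6.89 at 6 h and 4.17, 3.74, 4.19 and 3.80 at 10 h. The groups were apart by 1.88 log2 units at their nearest livers, and the fall was 2.53 ± 0.18 (SE, 5.78-fold, adjusted p = 6.21e-08). Hsd17b2 stood at 5.75 in vehicle livers, 5.73 at 3 h and 6.75 at 16 h. Limk2, a kinase of the actin cytoskeleton (-2.14, adjusted p = 0.0148), Ccl24, a chemokine for eosinophils (-2.00, adjusted p = 0.0267), and Tor3a, of the torsin family (-1.89, adjusted p = 0.015), complete the 15 largest falls. Their calls were lost without 6 h replicate 1 or 3, that of Ccl24 also without 6 h replicate 2 or 10 h replicate 2, and that of Limk2 also without 10 h replicate 4 (adjusted p up to 0.154, 0.223 and 0.144 in the order given).

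Nrep led the rises. Nrep, first described in regenerating neurons, was 1.58, 2.71 and 2.67 at 6 h and 4.70, 3.61, 4.79 and 5.23 at 10 h, a rise of 2.26 ± 0.30 (SE, 4.80-fold, adjusted p = 0.000245). The 6 h livers were the low ones of the time course (mean 2.32), with 4.39 in vehicle livers, 4.60 at 3 h and 5.18 at 16 h. S1pr1, a receptor of sphingosine 1-phosphate that is abundant on endothelium, was 4.88, 4.68 and 4.81 at 6 h and 6.00, 5.54, 6.09 and 6.31 at 10 h. S1pr1 rose by 1.19 ± 0.16 (SE, adjusted p = 0.0003), and again the 6 h mean of 4.79 was the low point, against 6.29 in vehicle livers and 6.18 at 3 h.

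Gnmt, which uses up methyl groups from S-adenosylmethionine and is known to respond to RA in rat liver, was 6.66, 6.83 and 6.69 at 6 h and 7.50, 7.86, 7.47 and 7.51 at 10 h. It rose by 0.86 ± 0.14 (SE, adjusted p = 0.00349), without overlap, while vehicle livers had 6.10 ± 0.56 (SD, n = 3). Gnmt was called in each of the 7 fits that left out 1 array, but not over the 13 RA arrays (limma adjusted p = 0.348). Pemt, another methyltransferase that makes phosphatidylcholine, fell by 0.99 (adjusted p = 0.0128), and lost the call without 6 h replicate 2 or 3 or 10 h replicate 2 or 4 (up to 0.145). These were the called members of 23 genes of methyl group and one-carbon metabolism, where 1.27% of all genes were called.

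The other large rises were less firm than those of Nrep, S1pr1 and Angptl4. Tmc4, a membrane channel family member, was -0.28, -0.21 and -1.12 at 6 h and 2.23, 1.25, 1.34 and 1.24 at 10 h (difference 2.05, 1.06 to 3.05, adjusted p = 0.0411). Hsd11b2, which inactivates corticosterone, went from 0.49, 0.17 and -0.10 to 2.04, 1.89, 1.72 and 1.56 (difference 1.62, 0.86 to 2.37, adjusted p = 0.0332). In both genes the groups were well apart, but Tmc4 kept its call only without 6 h replicate 2 and Hsd11b2 only without 6 h replicate 1, at levels near the array median. Inhba, a subunit of activin, rose by 1.43 (adjusted p = 0.0125), Rnf125, a ubiquitin ligase, by 1.30 (adjusted p = 0.00663), and Lgalsl, a galectin relative, by 1.35 (adjusted p = 0.00573). These 3 were called over the 13 RA arrays too, and each lost its call without a 6 h array (Inhba without replicate 2, Rnf125 without replicate 1, Lgalsl without replicate 3) and Inhba also without 10 h replicate 3 or 4. Second probe sets were not called for Inhba (-0.50, opposite in sign, adjusted p = 0.876), Lgalsl (0.86, adjusted p = 0.595) or Tmc4 (0.91 and 0.53), and the adjusted p of Inhba over its alternatives reached 0.68.

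Rgs2, a regulator of G protein signalling (1.56), Sez6 (1.45), Nat8, an acetyltransferase (1.40), and Rb1, the retinoblastoma protein that restrains the cell cycle (1.25), were also called higher. Their largest adjusted p without 1 array were 0.154, 0.206, 0.146 and 0.144, and the Nat8 difference was 0.92 without 6 h replicate 2. A second Rgs2 probe set had the opposite sign (-1.03, adjusted p = 0.734). Rgs2 kept its call only without 6 h replicate 3 and Nat8 only without 6 h replicate 1, while Sez6 lost it without 6 h replicate 3 or 10 h replicate 1, 2 or 4, and Rb1 without 6 h replicate 3 or 10 h replicate 2 or 4. Sult1a1, a sulfotransferase (0.74, adjusted p = 0.0256), and Nqo1, a quinone reductase induced by NRF2 (0.89, adjusted p = 0.0256), were the called members of 33 conjugation and NRF2 genes, and each was called in 2 of the 7 fits that left out 1 array. The share called over all genes was 1.27%.

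Several lists gave no call with limma, which is no result about these pathways, since 1.27% of all genes were called and the lists are short. None of 24 immediate early, 24 NF-kappaB and cytokine, 36 interferon, 20 heat shock, 29 ribosome biogenesis, 23 ribosomal protein and 46 oxidative phosphorylation genes was called. At an unadjusted p under 0.05 these lists held 4, 8, 6, 5, 8, 2 and 6 genes in that order. Of these, 2, 7, 5, 3, 8, 1 and 4 were lower at 10 h. Over all features, 2167 of 20710 probe sets had an unadjusted p under 0.05. All 8 of the ribosome biogenesis list were lower at 10 h, and 26 of its 29 genes had a difference below 0, as did 7164 of all 11291 genes (list median -0.47, and -0.32 after quantile normalization). The median was -0.02 for oxidative phosphorylation and -0.05 for ribosomal proteins.

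**Figure D4:**
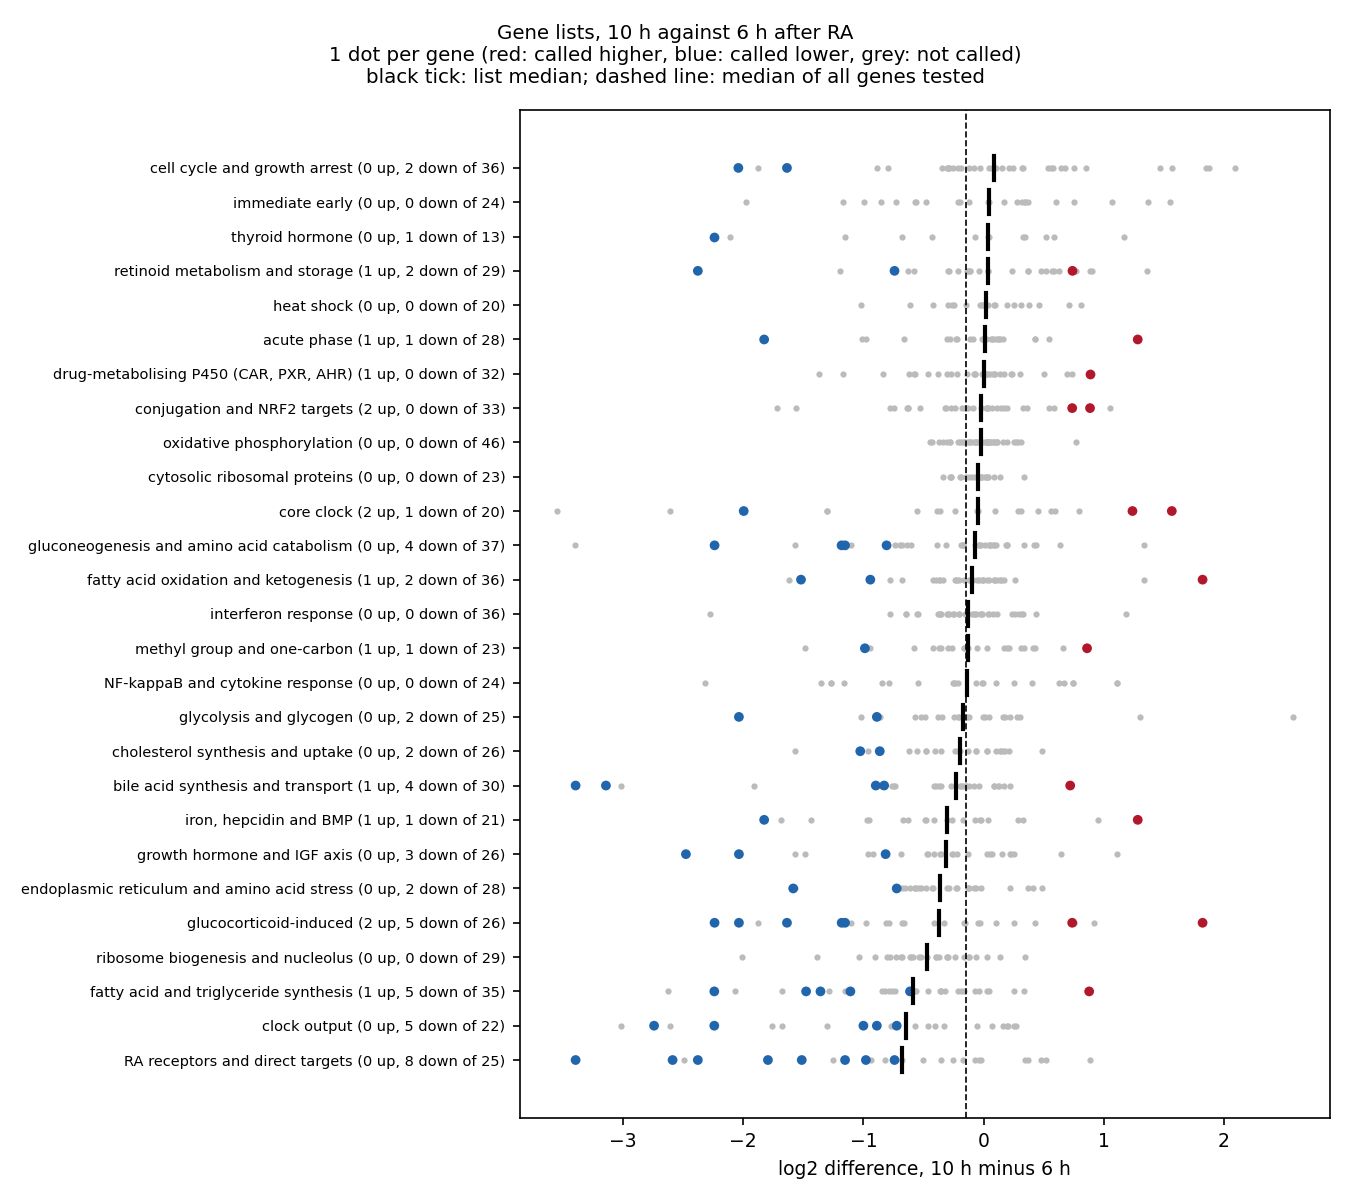
Log2 difference, 10 h minus 6 h (x axis), of each measured gene (dots) in the 27 pathway lists (rows), ordered by list median (black ticks), with genes called higher in red, called lower in blue and others in grey; the dashed line is the median of all genes tested (-0.14). RA receptors and direct targets, clock output and fatty acid and triglyceride synthesis have the lowest medians (-0.68, -0.65 and -0.59). The first includes Tsku, Dact2, Snx21 and Nr0b2, put on the list with earlier results known, and without them its median was -0.35.

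Markers of liver cell types were examined beside these changes. The hepatocyte markers, led by albumin and transthyretin, summed to 4400 to 4520 times the array median at 6 h and 3850 to 4930 times at 10 h, and 1 of 14 was called (Hnf4a). Over all genes 1.27% were called. For the other 11 cell types 0 markers were called by limma, and the summed levels of 10 of them overlapped between the groups. At an unadjusted p under 0.05 there were 3 of 12 markers of Kupffer cells and macrophages and 2 of 10 of MHC class II. There was also 1 of 12 for sinusoidal endothelium and 1 of 13 for T and NK cells. All of these were lower at 10 h. Over all features, 2167 of 20710 probe sets were under that p. T and NK cell markers summed to 12.0 to 15.3 at 6 h and 8.63 to 11.8 at 10 h, without overlap, with 0 of 13 called. Lum, a stellate cell and fibroblast marker, was the only marker at the floor on any of the 7 arrays. Whether the T and NK cell shift has a part in the falls was not tested.

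Levels at the other times of the course show where the 6 h and 10 h livers lay. Of the 109 genes that fell, 76 had a 6 h mean above the vehicle mean and 14 a 10 h mean above it. In 59 of the 109 the 6 h mean was the highest of the 4 RA times, and in 54 the 10 h mean was the lowest. Of the 34 genes that rose, 28 had a 10 h mean above the vehicle mean and 6 a 6 h mean above it, in 23 the 10 h mean was the highest of the RA times, and in 16 the 6 h mean was the lowest. These counts partly follow from the choice of the genes, since a gene that fell is likely to be high at 6 h or low at 10 h. The shares over all genes are not given here, so the counts do not set the called genes apart from the others.

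The livers at 3 h and 16 h share no array with the comparison. From 3 h to 16 h, 104 of the 109 genes that fell were lower (95.4%), as were 83.9% of all genes with a negative difference from 6 h to 10 h, and 11 of the 34 that rose were higher (32.4%), against 26.1%. Over all genes the median difference between 16 h and 3 h was -0.58, so a lower value at the later time was the common direction. The 16 h arrays stood apart, with correlations to their own group of 0.705 to 0.737 (0.862 to 0.865 at 3 h) and an upper quartile of 1.23 to 1.43 (1.66 to 1.79 at 3 h), and the part of this in the 16 h levels was not tested. Among the genes named, Tsku (-4.56), Dact2 (-3.65), Cyp26a1 (-3.43), Snx21 (-2.75) and Rarb (-2.31) were lower at 16 h than at 3 h. Hsd17b2 (1.02), Nr1d2 (0.90), Thrsp (0.28) and Herpud1 (0.34) fell from 6 h to 10 h and had higher means at 16 h than at 3 h.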

How the data were processed

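The deposited table holds log2 signal values of 31099 probe sets, made by the authors with GCOS per the submitters' processing notes (version not given); each array has a median of 0 and a floor value. The values were tested as deposited on the 7 arrays with limma 3.58.1 in R 4.3.3 (lmFit on group means, eBayes with an intensity trend, prior and residual degrees of freedom 15.2 and 5). A probe set was tested where it exceeded its array's 40th percentile on at least 3 arrays, the 57 control probe sets left out, and p-values were adjusted by Benjamini-Hochberg over all 20710. Of all probe sets 20832 matched 1 gene, 436 several and 9831 none, and 33 called probe sets are unnamed here. Each gene was represented by its probe set with the highest mean, and 868 of 997 list entries matched a gene. The group members and gene lists were chosen with earlier results of these data known, and no set test was run. Named genes were the 15 largest called changes in each direction, up to 4 called members of each list with at least 2, all called retinoid, RA target and core clock genes, and a fixed list of retinoid, clock and metabolic genes, of which some are not reported here. Genes outside the rule are said to be so in the text or are given only as further called list members. Replicates are separate rats. Figures were drawn with matplotlib.

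On simulated data of this design, with 100 of 20710 probe sets changed at each fold, 8% of 2-fold and 33% of 4-fold changes were recovered, and 8.89% of 45 calls were on unchanged probe sets, so most changes of these sizes go uncalled. Alternatives were quantile normalization, other filters, no intensity trend, array weights, an added offset, the other arrays of the time course in the fit, fold minimums, the mean over probe sets, fits with 1 array left out, a block for the replicate number and, chosen after seeing the data, centring on the probe sets tested.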

Additional observations from a re-analysis of the deposited data

Results flagged for a closer look

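In the 10 h group of 4 livers, 8 of 76 named genes had 1 liver far from the other livers, by the gap to its nearest neighbour relative to the whole range, and chance gives about 1 in 20 such groups. Replicate 3 was low for Dact2 (0.54, others 1.59 to 1.76), Per2 (-2.50, others 0.53 to 1.06) and Hnf4a (4.67, others 5.50 to 5.63). Replicate 1 was high for Tmc4 (2.23, others 1.24 to 1.34) and for Slc2a2 (5.87, others 5.03 to 5.11). Replicate 2 was high for Gnmt (7.86, others 7.46 to 7.51) and low for Herpud1 (3.38, others 3.93 to 4.01). Replicate 4 was low for Scd (2.50, others 3.34 to 3.42).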

How the results depend on the processing

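Each of the 197 called probe sets kept its sign under every alternative that tested it, but several alternatives could not change a sign. Other filters, no intensity trend and the other arrays in the fit leave the difference of the group means as it was. The calls also differed by at least 1.5-fold, so the kept signs say little about robustness. Of the 197, 135 were also called after quantile normalization. The count of calls, and of calls of at least 1.5-fold, was 0 without an intensity trend (1684 at an unadjusted p under 0.05), 39 over the 13 RA arrays, 37 over all 16 arrays and 67 to 179 with 1 array left out; 112 differed by at least 2-fold. Members of the pathway lists called numbered 47, and 0, 11, 13 and 20 to 47 under those settings. Centring on the probe sets tested gave 75 calls higher and 129 lower.

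Replicate numbers did not pair the livers: the deviations of same-numbered livers correlated at 0.01, -0.01 and 0.01. With the replicate block 215 probe sets were called over replicates 1 to 3, against 99 without it.

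Values that changed sign belong to genes that were not called. Per1 was 0.086 after quantile normalization, 0.64 with the replicate block, 0.036 with centring on the probe sets tested and -1.14 to 0.64 with 1 array left out. Srebf1 was 0.078 after quantile normalization, 0.0092 with that centring, and -0.23 to 0.043 with 1 array left out. Cry2 was 0.33 as a mean over its probe sets. With 1 array left out, Cyp3a9 ran from -0.38 to 0.47, Clock from -0.042 to 0.33 and Fkbp5 from -0.53 to 0.20. With 3 and 4 livers a group, the number of arrays limits the precision, and differences of weak probe sets near the floor have wide errors.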

Other observations

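The rise with the lowest p was that of probe set 1373108_at, which is unnamed here. Its mean went from 3.07 at 6 h to 5.17 at 10 h, a log2 difference of 2.10 ± 0.14 (SE, limma adjusted p = 6.21e-08).

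Several called genes lay outside the lists and the rule and were chosen here after their values were seen. Klf15, a transcription factor of amino acid and glucose metabolism, fell by 1.52, Mfsd2a, a transporter of lysophospholipids, by 1.56, and Cks1b, a partner of cyclin-dependent kinases, by 1.39. Hes6, a relative of the Notch target Hes1, fell by 1.27, and Hes1 itself by 1.03. Amd1 and Odc1, enzymes of polyamine synthesis, fell by 1.22 and 0.84. Klf15, Mfsd2a, Cks1b and Hes6 were called in each of the 7 fits that left out 1 array, Amd1 in 3 and Hes1 and Odc1 in 1, and Hes1 and Odc1 were not called after quantile normalization (adjusted p = 0.0652 and 0.112).

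The E-box CACGTG, which BMAL1 and CLOCK bind, was present in 13 of 135 promoters of called genes (9.63%) and in 2148 of 33469 RefSeq promoters (6.42%), counted in 300 bases around the start on both strands. Called genes with a match include Nr0b2, Klf15, Dnajb9 and Plin2. No test was made of these shares.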
